A study of Mus musculus with 12 samples.

Results

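Voltage-gated sodium channels and their partners were followed through 9 genes, chosen by name from the 43346 annotated genes of the tables. They are the pore genes Scn1a, Scn2a, Scn3a and Scn8a, the beta subunit genes Scn2b, Scn3b and Scn4b, and Fgf14 and Fgf12, which encode intracellular fibroblast growth factors that bind the pore. All 9 symbols matched a gene identifier, and the rule that names them uses no measured value. The RNA came from 1 male B6CASTF1/J mouse, a hybrid of Castaneus and C57Bl6, that was 14 months old. A homogenate of 13 excised Purkinje cells, the output neurons of the cerebellar cortex, was divided into portions of 1 cell-equivalent, and 12 portions were sequenced by Smart-seq. They form 1 group, numbered here by technical replicate (1 to 6 and 8 to 13), with no treatment and no control. The libraries therefore share their cells, and every p-value measures the technical spread between portions of 1 pool from 1 animal.

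A sodium channel consists of a large pore protein, which opens on depolarisation and closes by inactivation, and of beta subunits, single-span membrane proteins that change its gating and its place in the membrane. Purkinje cells fire spontaneously at high rates and are known for a resurgent sodium current, carried largely by the Scn8a channel, in which a blocking particle leaves the open pore on repolarisation. The tail of the Scn4b protein and the amino-terminal end of A-type FGF14 have both been studied as such particles. Mutations of human FGF14 cause a spinocerebellar ataxia, and those of human SCN1A cause Dravet syndrome.

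The pore genes are close copies of each other, and some of their reads cannot be told apart. Over the GENCODE M21 transcripts on mm10, 4.03% of the 50-base stretches of Scn1a were also found in Scn2a, Scn3a or another gene compared, against 5.62% for Scn2a, 6.49% for Scn3a and 0.0374% for Scn8a. The 10 genes searched were the 9 and Scn9a, and the beta and FGF genes shared none. Reads from the shared stretches of Scn1a, Scn2a and Scn3a had to be divided by estimation, and small values of 1 of them are uncertain.

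Fgf14 begins at alternative first exons far apart, and the choice between them decides which amino-terminal end the protein has. Both coding first exons are shown because the estimated transcript levels separated the libraries by them. They are given with the start codon in capitals, as the coding strand of GENCODE M21 on mm10.
Fgf14-201: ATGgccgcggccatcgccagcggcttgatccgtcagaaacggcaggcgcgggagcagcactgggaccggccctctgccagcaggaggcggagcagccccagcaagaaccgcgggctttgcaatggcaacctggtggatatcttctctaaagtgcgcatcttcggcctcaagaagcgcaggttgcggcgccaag
Fgf14-202: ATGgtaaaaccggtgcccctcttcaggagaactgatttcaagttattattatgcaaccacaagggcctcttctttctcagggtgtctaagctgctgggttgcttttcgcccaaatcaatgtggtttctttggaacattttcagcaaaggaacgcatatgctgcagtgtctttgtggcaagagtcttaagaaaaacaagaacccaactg
The coding part of the Fgf14-201 exon spans 193 bases (chr14:124192329-124192521, minus strand) and that of Fgf14-202 spans 208 bases (chr14:124676510-124676717, minus strand). The 2 transcript starts lie 484225 bases apart, and of the 4 later exons 3 have the same ends in both. G and C made up 64.8% of the Fgf14-201 stretch and 43.8% of the Fgf14-202 stretch. The Fgf14-201 end is that of the A-type form.

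Total expected counts, the estimated numbers of reads, ran from 15167444 to 27806010 per library, and 8497 to 11581 genes had a count of at least 1. A count of 0 in 1 library allows up to 0.124 to 0.219 CPM (reads scaled to a fixed total per library), taking 3 counts as the limit and covering counting error only. The label of the cells was checked against a list of 12 genes taken as Purkinje markers. All had a mean of at least 1 TPM (transcripts scaled by length to a fixed total per library). Their summed level was 28250 ± 5683 TPM (SD, n = 12), led by Pcp4 and Pcp2. Cbln1, the lowest of them at 23.6 ± 26.3 TPM, is not specific to Purkinje cells and does not speak for the label. Markers of other cells were present at lower sums. Bergmann glia and astrocyte markers summed to 2182 ± 686 TPM (1328 to 3586, led by Slc1a3 and Hopx), with 8 of 8 at a mean of at least 1 TPM. Granule cell markers summed to 442 ± 226 TPM (79.8 to 826, led by Gabra6 and Calb2), with 9 of 9 at that level. Interneuron markers summed to 36.6 ± 30.5 TPM (4.70 to 116, led by Lgi2 and Kit), with 6 of 8, and Sst had no count in any library. Oligodendrocyte markers summed to 194 ± 81.8 TPM (91.3 to 378.5, led by Cnp and Mbp), with 5 of 7 at a mean of at least 1 TPM. Microglial markers summed to 117 ± 166 TPM (0 to 462, led by Ctss and Tyrobp, with Fcer1g without a count), with 4 of 7 at that level. Endothelial and mural markers summed to 29.3 ± 82.3 TPM (0 to 287, led by Ly6c1 and Vtn, with Cldn5 and Acta2 without a count), with 4 of 6 at that level. The part of those cells in the sodium channel values was not tested. In such a pool, fewer cells with a transcript and less of it per cell cannot be told apart.

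Scn1a, Scn2b and Scn8a were the highest of the 9 genes, and Scn3a and Scn3b were near 0. The mean levels per length followed the order Scn1a 67.7 TPM, Scn2b 52.4, Scn8a 37.9, Fgf12 33.8, Scn4b 19.8, Fgf14 18.7, Scn2a 15.8, Scn3b 0.179 and Scn3a 0.0292 TPM. Each of the first 7 overlapped its neighbour in that order over the libraries. The lowest Scn2a value, 1.82 TPM, was above the highest Scn3b value, 1.28 TPM. Expected counts of at least 50 were found in all 12 libraries for 5 of the 9 genes, Scn1a, Scn2a, Scn8a, Scn2b and Scn4b. The share over all annotated genes was 3.72%. That background holds many genes with no reads, and among genes of a mean level of 10 to 100 TPM it was 13.7%, against 5 of the 7 sodium channel genes at that level. At a count of at least 1, 6 of the 9 genes were found in all libraries, against 8.46% of all genes and 39.4% of those at 10 to 100 TPM. Counts at a given TPM rise with transcript length, and these backgrounds were not matched for length.

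**Figure D1:**
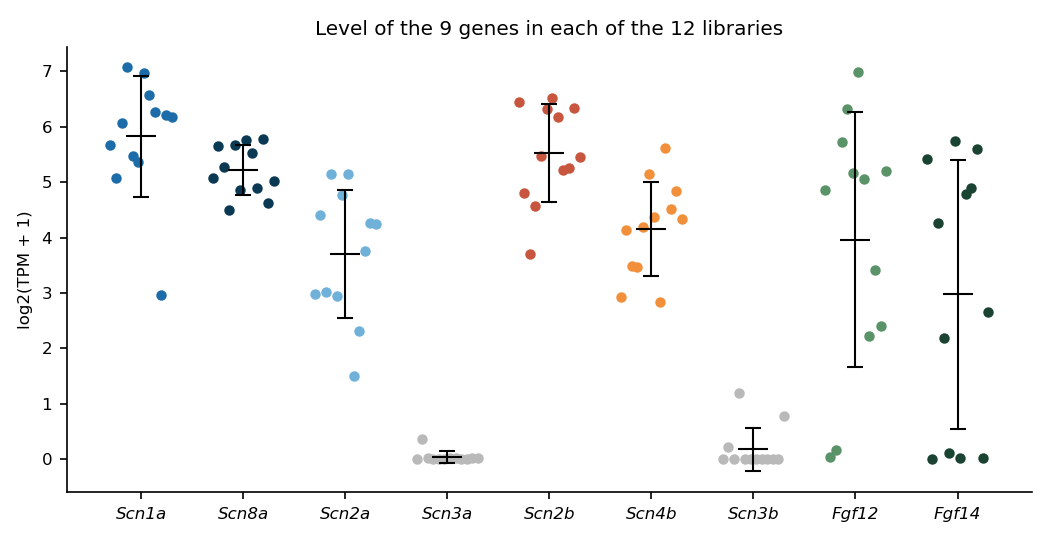
Level of each of the 9 genes on the vertical axis as log2(TPM + 1), with 1 point per library (n = 12, in order of replicate number within a gene) and the mean with its SD as a black bar. Scn8a points sit close together between 21.6 and 53.8 TPM, while Fgf14 and Fgf12 points spread down to 0 and 0.03 TPM.

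Scn1a (ENSMUSG00000064329.9; mm10 chromosome 2, 66270778 to 66440840, minus strand) encodes the pore NaV1.1 and had the highest mean of the 9. Its level was 6.79 TPM at the lowest, 68.8 TPM at the median and 133.8 TPM at the highest, with a mean of 67.7 ± 36.9 TPM (SD, n = 12). Library 11 was lowest and library 4 highest, a 19.7-fold span, and all 12 libraries had at least 304 counts.

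Scn8a (ENSMUSG00000023033.10; mm10 chromosome 15, 100869858 to 101045938, plus strand) encodes NaV1.6, the main pore of the adult initial segment. Its level was 21.6 TPM at the lowest, 35.1 TPM at the median and 53.8 TPM at the highest, with a mean of 37.9 ± 11.8 TPM (SD, n = 12). The span was 2.49-fold, from library 4 to library 11, which is the reverse of the extremes of Scn1a. It was the narrowest span among the 5 genes found in every library at 50 counts.

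Scn2a (ENSMUSG00000075318.8; mm10 chromosome 2, 65620771 to 65767447, plus strand) encodes NaV1.2, a pore known from unmyelinated axons and immature initial segments. Its level was 1.82 TPM at the lowest, 15.2 TPM at the median and 34.35 TPM at the highest, with a mean of 15.8 ± 11.3 TPM (SD, n = 12). Library 9 was lowest and libraries 4 and 8 were highest, at almost the same level.

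Scn3a (ENSMUSG00000057182.10; mm10 chromosome 2, 65457118 to 65567627, minus strand), whose pore NaV1.3 is mostly embryonic, was at 0 counts in 6 libraries and at 1 to 4 counts in 5. Library 2 had 53 counts, which is 0.28 TPM. Since 6.49% of its 50-base stretches occur in the neighbouring pore genes, those few counts are uncertain.

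Within libraries, Scn1a and Scn8a each stood above Scn2a, and all of these stood above Scn3a. Differences between genes are given on the log2(TPM + 1) scale, first gene minus second, and were tested over the 12 libraries with the exact sign-flip permutation test (two-sided), adjusted over 15 pairs, of which 12 are given, by the Benjamini-Hochberg method. The smallest p that 12 libraries allow is 0.000488. Scn1a over Scn2a was 2.12 ± 1.55 (SD, n = 12), higher in 11 of 12 libraries with library 11 the exception (adjusted exact p = 0.00366). Scn8a over Scn2a was 1.51 ± 1.33, higher in 11 of 12 with library 4 the exception (adjusted exact p = 0.00488, n = 12). The first was 1.34 on transcripts of at least 5000 bases and the other 0.98 with a pseudocount of 10, and both still passed. On protein-coding transcripts only, Scn1a over Scn2a was 2.27 and held in 12 of 12 libraries (adjusted exact p = 0.00122). On transcripts of at least 5000 bases it held in 11 of 12, with library 11 again the exception.

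Scn1a over Scn3a was 5.79 ± 1.11, Scn8a over Scn3a 5.18 ± 0.43 and Scn2a over Scn3a 3.67 ± 1.14, each in 12 of 12 libraries (adjusted exact p = 0.00122 for each). Scn3a was near 0, so these sizes depend on the pseudocount. With pseudocounts of 10 and 0.1 they were 2.77 and 8.87 for Scn1a, 2.22 and 8.26 for Scn8a, and 1.24 and 6.64 for Scn2a, with the same calls. Scn1a and Scn8a were not separated. Scn1a over Scn8a was 0.61 ± 1.35, higher in 9 of 12 libraries and lower in libraries 2, 5 and 11 (adjusted exact p = 0.205, n = 12). Without library 11 the difference was 0.92 and passed (adjusted exact p = 0.0103). It changed sign, to -0.40, on CPM, which is not scaled by length, and to -0.33 when only transcripts of at least 5000 bases were summed. The order of these top 2 pore genes therefore depended on the measure.

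**Figure D2:**
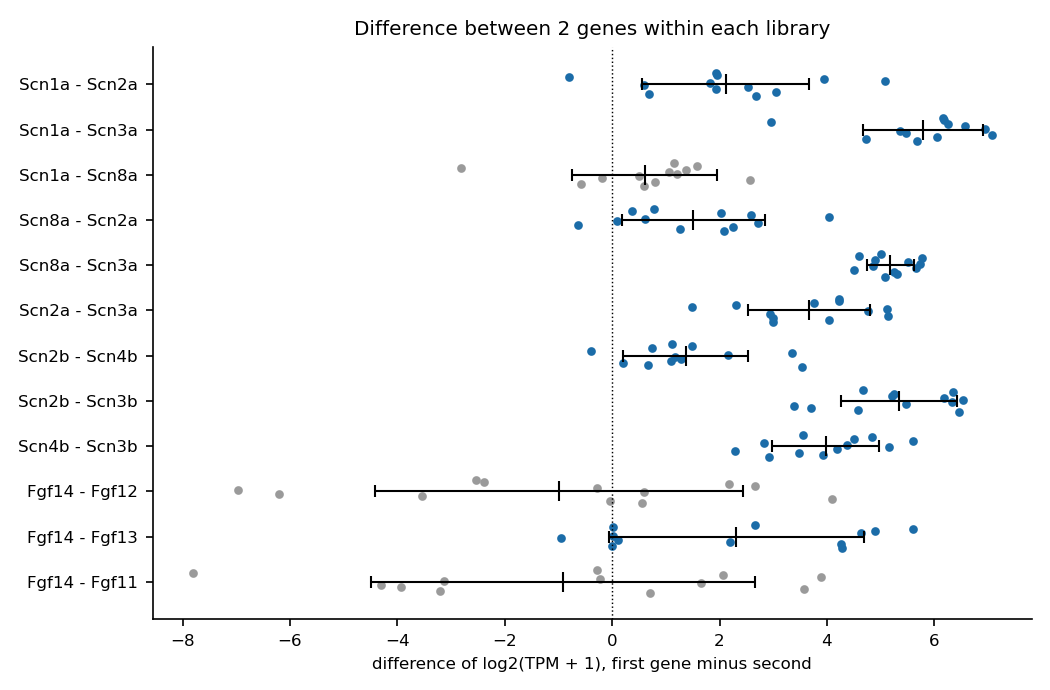
Difference between 2 genes of the same library on the log2(TPM + 1) scale, first gene minus second, with 1 point per library (n = 12) and the mean with its SD as a black bar. Blue pairs had an adjusted exact p under 0.05 and grey pairs did not, and the Scn8a - Scn3a points lie closest together, at 5.18 ± 0.43.

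The transcripts of Scn8a were nearly uniform and those of Scn1a were not. Scn8a-203 led the gene in all 12 libraries, with 76.8% of its TPM at the lowest and 100% at the median. Scn1a had 4 different leading transcripts. The 8116-base Scn1a-201 led in libraries 2, 3, 6, 8 and 12, and the 8386-base Scn1a-203 in library 5. The 660-base Scn1a-206 led in libraries 1, 4 and 13, and the 2659-base Scn1a-207 in libraries 9, 10 and 11. In library 10 it was almost level with Scn1a-201, at 36.59 against 36.54 TPM for Scn1a-201. These lengths are those of the deposited tables.

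Because TPM divides by length, few reads on a short transcript weigh much. Scn1a-206 held 76.01 of the 133.8 TPM of Scn1a in library 4 from an expected count of 677.7. Transcripts of at least 5000 bases, long enough for most of the pore's coding sequence, held 55.3% of the summed Scn1a TPM but 85.1% of its counts. Their Scn1a level was 37.5 ± 19.4 TPM (SD, n = 12), with 0.32 TPM in library 11 as the lowest and 69.9 TPM in library 12 as the highest. For Scn8a the same sum was 37.9 ± 11.8 TPM, and it held 100% of the gene. The length limit was chosen after the transcript values were seen.

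Scn2a was read as 1 of 2 long transcripts in most libraries. Scn2a-202, of 8690 bases, led in 8 libraries (1, 3, 5, 6, 8, 9, 12 and 13), and Scn2a-201, of 8849 bases, led in libraries 2, 4 and 10. In library 11 the 698-base retained-intron transcript Scn2a-203 led with 9.44 of the 12.5 TPM. In TPM, library 11 was thus the one in which both Scn1a and Scn2a rested mostly on transcripts too short for a whole pore. By counts this did not hold for Scn2a. Scn2a-203 had a mean count of 8.33 over the 12 libraries, while the gene had 519 counts in library 11. Over all libraries, transcripts of at least 5000 bases held 94.5% of the summed Scn2a TPM and 99.7% of its counts. Scn8a in library 11 was at its highest, 53.83 TPM, all on Scn8a-203.

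**Figure D3:**
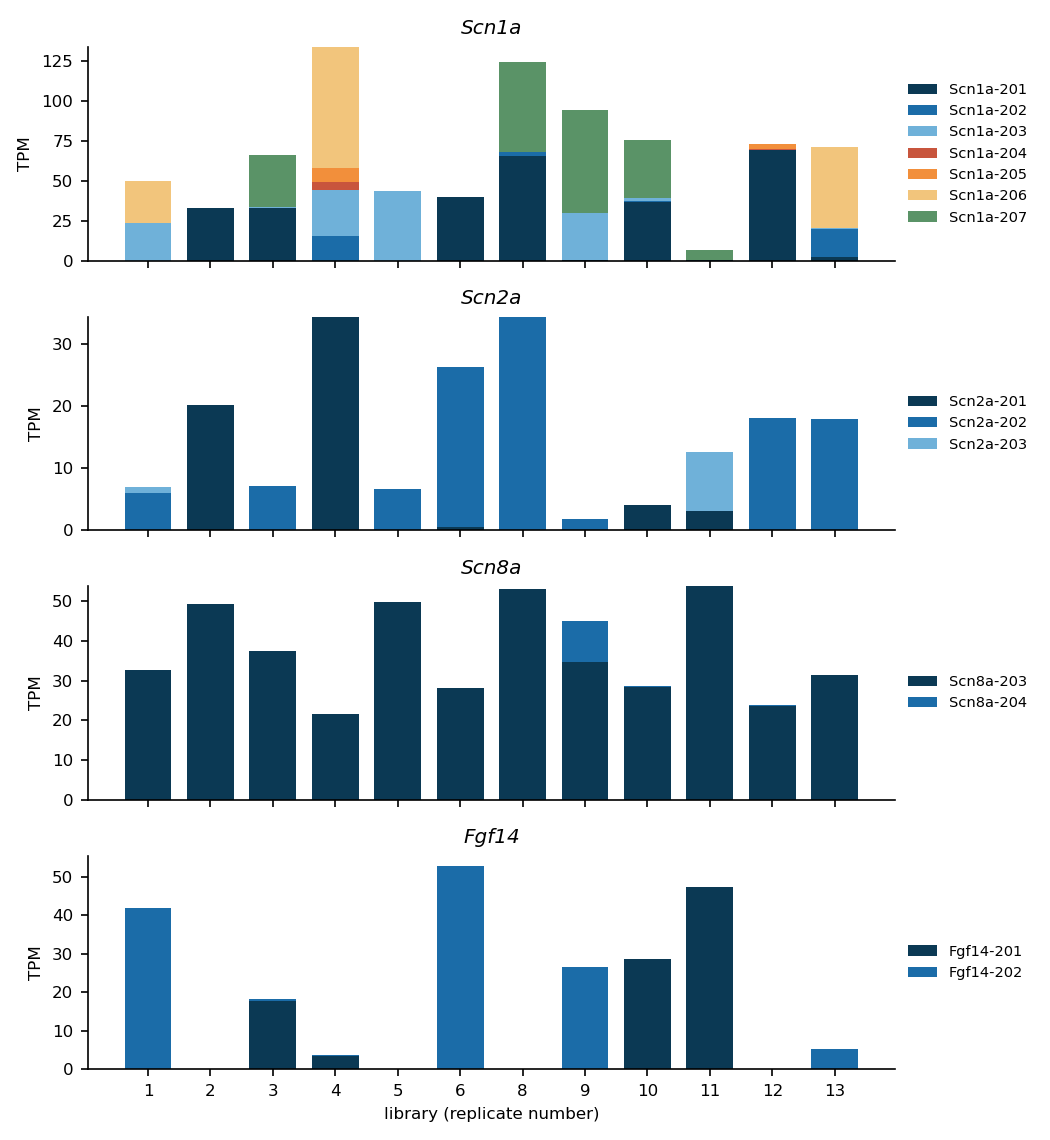
TPM of each transcript, stacked by library (horizontal axis, replicate number), for Scn1a, Scn2a, Scn8a and Fgf14, with transcripts under 0.5 TPM in sum left out. Scn8a is Scn8a-203 in every library, with 10.47 TPM of Scn8a-204 added in library 9, while Fgf14 shows Fgf14-202 in libraries 1, 6, 9 and 13 and Fgf14-201 in libraries 3, 4, 10 and 11.

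Of 6 other pore genes, 4 had no count in any library. These were Scn4a, Scn7a, Scn10a and Scn11a, which are known from muscle, glia and sensory neurons. A count of 0 over all 12 libraries allows up to 0.0137 CPM. Scn9a (NaV1.7, known from sensory neurons) had at least 50 counts in libraries 1, 2, 4, 10 and 13, between 3.44 and 15.98 TPM, and at most 3 counts in the other libraries. It is the neighbour of Scn1a, 39239 bases away. Nalcn, the sodium leak channel, reached 50 counts in 4 libraries, with 22.93 TPM in library 5 as the highest.

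Summed over Scn1a, Scn2a, Scn3a, Scn8a and Scn9a, the pore genes had 125 ± 42.0 TPM (SD, n = 12), from 73.2 TPM in library 11 to 212 TPM in library 8. The CV of that sum, its SD over its mean, was 0.336, against 0.546 for Scn1a, 0.715 for Scn2a and 0.312 for Scn8a alone. Scn1a made up 51.0 ± 17.4% of the sum and led in 9 libraries. Scn8a made up 33.6 ± 16.4% and led in libraries 2, 5 and 11.

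**Figure D4:**
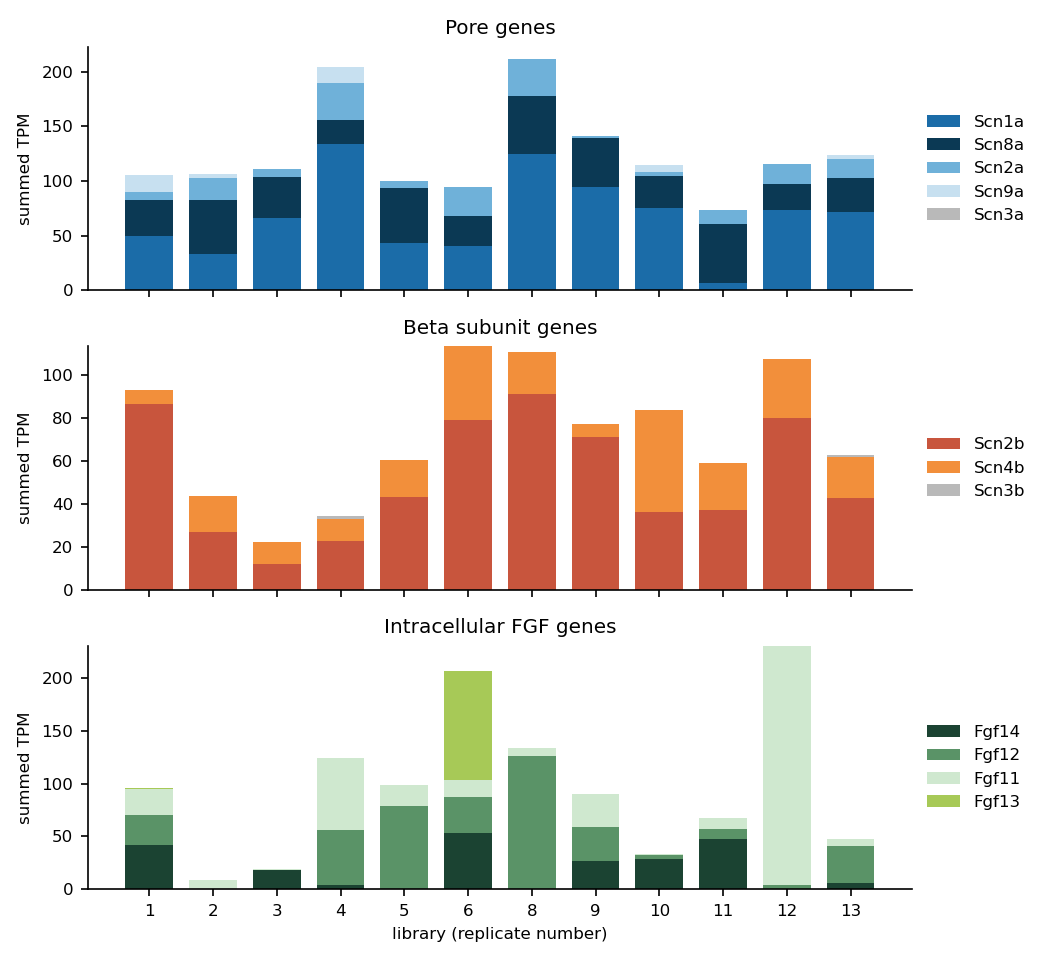
Summed TPM (vertical axes) by library (horizontal axis, replicate number) of pore, beta subunit (Scn2b, Scn4b and Scn3b) and intracellular FGF genes, with colours for genes. The pore and beta sums vary 2.90-fold and 5.11-fold between libraries, while the FGF sum varies 28-fold and changes its leading gene.

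Among the 3 beta subunits given, Scn2b led and Scn4b was present in every library, while Scn3b was seen in 3. Scn2b (ENSMUSG00000070304.7; mm10 chromosome 9, 45117782 to 45130070, plus strand) encodes a subunit joined to the pore by a disulphide bond. Its level was 12.0 TPM at the lowest, 43.0 TPM at the median and 91.2 TPM at the highest, with a mean of 52.4 ± 27.5 TPM (SD, n = 12). Library 3 was lowest, and libraries 8 and 1 were highest.

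Scn4b (ENSMUSG00000046480.5; mm10 chromosome 9, 45138395 to 45154152, plus strand) starts 8324 bases beyond the end of Scn2b on the same strand. Its level was 6.11 TPM at the lowest, 18.2 TPM at the median and 47.8 TPM at the highest, with a mean of 19.8 ± 12.2 TPM (SD, n = 12). Library 9 was lowest and library 10 highest. The levels of these neighbouring genes had a Spearman rho of 0.14 over the 12 libraries.

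Scn3b (ENSMUSG00000049281.11; mm10 chromosome 9, 40269217 to 40291618, plus strand) had 80 counts in library 4, 54 in library 13 and 14 in library 2, and none in the other libraries. Its highest level was 1.28 TPM. Scn2b over Scn4b was 1.37 ± 1.16 on the log2(TPM + 1) scale, higher in 11 of 12 libraries with library 10 the exception (adjusted exact p = 0.00314, n = 12). Scn2b over Scn3b was 5.34 ± 1.08 and Scn4b over Scn3b 3.97 ± 1.00, each in 12 of 12 libraries (adjusted exact p = 0.00122 for both). Scn3b was at 0 in 9 libraries, so these sizes also depend on the pseudocount, with 2.47 and 8.13 for Scn2b and 1.45 and 6.71 for Scn4b at pseudocounts of 10 and 0.1.

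Scn4b-201 was the only annotated transcript of Scn4b, and Scn2b-201 led Scn2b in all 12 libraries with at least 67.3% of its TPM. Summed over Scn2b, Scn3b and Scn4b, the level was 72.4 ± 30.5 TPM (SD, n = 12), from 22.2 TPM in library 3 to 113.5 TPM in library 6. Scn2b made up 69.9 ± 14.5% of that sum and led in 11 libraries, and Scn4b led in library 10.

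The intracellular FGF genes were high in some libraries and low or at 0 in others. Fgf11 and Fgf12 had at least 1 count in all 12 libraries, while Fgf14 and Fgf13 had none in some. Fgf14 (ENSMUSG00000025551.9; mm10 chromosome 14, 123977907 to 124677127, minus strand) was at 0 TPM at the lowest, 11.7 TPM at the median and 52.8 TPM at the highest, with a mean of 18.7 ± 20.2 TPM (SD, n = 12). Libraries 1, 3, 4, 6, 9, 10, 11 and 13 had 175 to 3230 counts. Library 2 had 0 counts, libraries 8 and 12 had 1 count and library 5 had 4 counts, in libraries of 13694551 to 23690374 gene counts.

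By estimated transcript levels, the 2 starts of Fgf14 hardly ever appeared in the same library. Reads over the first exons themselves were not counted. Fgf14-202 led in libraries 1, 6, 9 and 13, with at least 99.9% of the gene's TPM in each. Fgf14-201, the A-type form, led in libraries 3, 4, 10 and 11, with 95.2% in library 4 as its lowest share. The highest level of Fgf14-202 was 52.82 TPM in library 6, where Fgf14-201 was at 0, and the highest level of Fgf14-201 was 47.28 TPM in library 11, where Fgf14-202 was at 0.10 TPM. The mean levels were 8.09 ± 15.4 TPM for Fgf14-201 and 10.6 ± 18.9 TPM for Fgf14-202 (SD, n = 12).

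Fgf12 (ENSMUSG00000022523.9; mm10 chromosome 16, 28160098 to 28753068, minus strand) had 1 transcript in the tables. Its level was 0.03 TPM at the lowest, 30.2 TPM at the median and 126 TPM at the highest, with a mean of 33.8 ± 37.6 TPM (SD, n = 12). It was highest in library 8, where Fgf14 had 1 count, and 10 libraries had at least 50 counts. Fgf14 over Fgf12 was -0.99 ± 3.43 on the log2(TPM + 1) scale, higher in 5 of 12 libraries (adjusted exact p = 0.374, n = 12). The rho between both genes over the libraries was -0.07.

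Fgf11 and Fgf13, the other intracellular FGF genes, were each led by 1 library. Fgf11 had a median of 13.4 TPM and stood at 226.29 TPM in library 12. Fgf13 stood at 102.88 TPM in library 6, was at 1.21 TPM in library 1 and at most 0.10 TPM elsewhere. Fgf14 over Fgf13 was 2.31 ± 2.37, higher in 10 of 12 libraries, lower in library 6 and 0 for both in library 2 (adjusted exact p = 0.0132, n = 12), although in libraries 5, 8 and 12 Fgf14 was itself at or under 0.08 TPM. On the authors' posterior mean TPM, which lifts zeros, that difference was 1.09 and missed (adjusted exact p = 0.174), and with pseudocounts of 10 and 0.1 it was 0.85 and 3.98 and passed. Fgf14 over Fgf11 was -0.92 ± 3.57 (adjusted exact p = 0.394, n = 12).

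Of the sum of the 4 FGF genes, 96.4 ± 69.7 TPM (SD, n = 12), Fgf12 led in libraries 5, 8, 9 and 13, and Fgf14 in libraries 1, 3, 10 and 11. Fgf11 led in libraries 2, 4 and 12, and Fgf13 in library 6. In TPM all 4 genes thus led somewhere, whereas Scn1a and Scn8a alone led the pores. The lead of Fgf13 in library 6 did not hold on CPM. There it had 1460 counts (85.79 CPM), against 3230 counts (189.8 CPM) for Fgf14. On CPM, and on protein-coding transcripts only, Fgf14 was above Fgf13 in 11 of 12 libraries.

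Across the 7 of the 9 genes with at least 2 transcripts, 59 gene values had 50 counts or more in a library. A single transcript held at least 90% of the TPM in 47 of them, which is 79.7%. Among values of 50 counts or more of the 4033 genes at 10 to 100 TPM with at least 2 transcripts, that share was 66.6%. For the 812 genes of at least 100 TPM with at least 2 transcripts it was 50.4%. Scn1a was lowest, with 5 of 12 libraries, and Fgf14 had 8 of 8. Of 3088 genes at 10 to 100 TPM with at least 2 transcripts and 50 counts in at least 6 libraries, 77.3% had at least 2 different leading transcripts, so a change of leader is common at this level. The share of 90% was chosen after the transcript values were seen.

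Except for Scn3a, the range over the libraries was wider than the estimation error given with the tables. The authors' deposited intervals, of a level not stated, had a median width of 4.50 TPM for Scn1a, against a range of 123 TPM over the libraries' posterior means. For Scn1a, the intervals of 61 of 66 pairs of libraries did not overlap. For Scn8a it was 62 of 66, for Fgf14 59 of 66, for Scn3b 13 of 66 and for Scn3a 0 of 66. The range of Scn3a was 0.3 TPM, below its median width of 0.653 TPM.

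The spread of the 9 genes was set beside that of genes of like abundance. The CV of CPM was below the median of 501 genes of nearest mean count for 7 of the 9 genes. The median difference was -0.27 on the log2 scale. Genes fall about as often below such a median as above it. Of the 7, Scn2a was almost level with its neighbours, at 0.788 against 0.796. Scn3a and Scn3b, also among the 7, rest on 67 and 148 counts over all libraries. The CV of Scn8a CPM was 0.336 against 0.465 for its neighbours, and that of Scn4b was 0.633 against 0.914. Fgf12, at 1.15 against 0.931, and Scn1a, at 0.527 against 0.470, were above theirs. A test of the quasi-dispersion of each gene against the abundance trend (edgeR quasi-likelihood, upper tail, Benjamini-Hochberg over 13899 genes) called 2 genes in all, Malat1 and Gm37376, which is 0.0144%. None of the 9 genes was called, and none had an unadjusted p under 0.05 (95 of all genes did). Fgf14 was nearest, with a quasi-dispersion ratio of 1.83 (unadjusted p = 0.195, adjusted p = 0.773 by edgeR). In edgeR's default fit, 13 genes or 0.0935% were called, again none of the 9. The first fit recovered only a small part of the overdispersed genes in simulated counts, so a missed call says little about a gene.

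**Figure D5:**
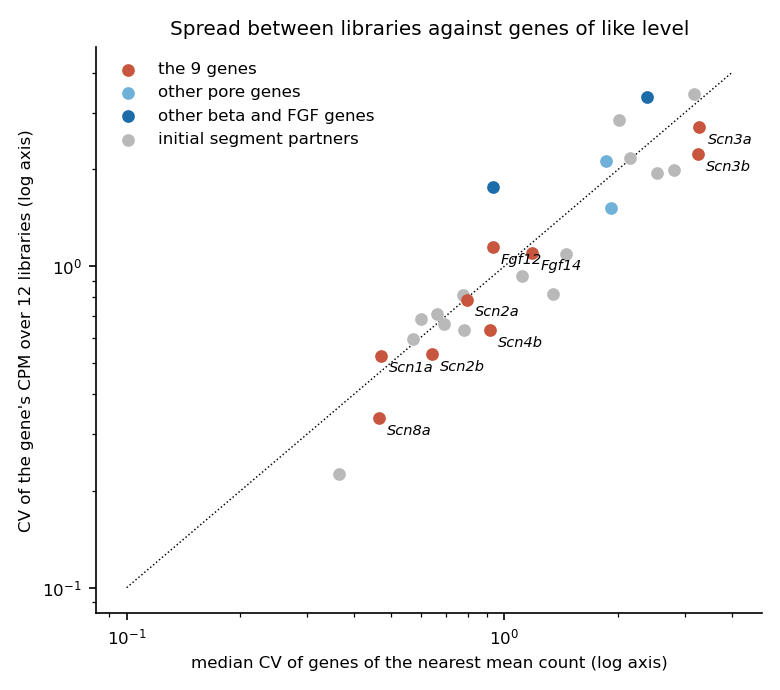
CV of each gene's CPM over the 12 libraries (vertical log axis) against the median CV of the 501 genes of nearest mean count (horizontal log axis), with the dotted line marking equality. Points of the 9 genes are named, and 7 of them lie below the line, while Fgf12 (1.15 against 0.931) and Scn1a lie above it.

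The 7 genes with a mean of at least 1 TPM did not vary together. Over their 21 pairs the median Spearman rho across the 12 libraries was 0.035, from -0.392 for Scn1a with Scn8a to 0.448 for Scn2b with Fgf12. The median over all pairs of 6534 genes with a mean of at least 10 TPM was 0.014. Values of 1 library share their total, so these correlations are a description only.

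The genes whose levels were most alike over the 12 libraries were picked from those 6534, so high values arise by choice. For Scn1a they were Kcng4, which encodes a modifier subunit of potassium channels (rho = 0.888), Mageh1 (0.865) and Wbp2 (0.846). For Scn2b they were Ppil1 (0.872), Acadm (0.869) and Fam107b (0.839). For Scn8a they were Rpl17 (0.916), Rnf166 (0.864) and Kif3c (0.825).

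Of 28 relations between the 7 genes and the summed markers of Purkinje, granule, Bergmann and interneuron type, none passed the adjustment in a permutation test with 100000 resamples. Scn4b with the Purkinje sum had the smallest p for r, with r = 0.689 and rho = 0.664 (permutation p = 0.0144 and 0.0219, adjusted 0.405 and 0.307, n = 12). It was 0.796 without the 2 libraries farthest from the median Purkinje sum, and 0.665 within the blocks of replicate numbers. Scn2a with the interneuron sum had the smallest p for rho, with r = -0.584 and rho = -0.671 (permutation p = 0.0464 and 0.0201, adjusted 0.649 and 0.307, n = 12), with r = -0.710 without the 2 farthest libraries and -0.692 within blocks.

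Sodium channels are anchored at the axon initial segment by ankyrin-G and spectrin and are bound by calmodulin. Of 15 such partners, 14 had a mean of at least 1 TPM, against 28.1% of all annotated genes, and 8 had 50 counts in all 12 libraries, against 3.72%. Among the highest were Calm2 at 6804 ± 1539 TPM and Calm3 at 151 ± 88.3 TPM (SD, n = 12), which encode the same calmodulin protein. Nedd4, a ubiquitin ligase gene, followed at 70.3 ± 38.7 TPM, and Cntn1, which encodes an axonal adhesion protein, at 54.5 ± 34.3 TPM. Kcnq3, a potassium channel gene of the same membrane, was lowest at 0.110 TPM and had 324 of its 326 counts in library 2. None of the 15 was called for dispersion in the fit used here, and Calm2 was called in edgeR's default fit (adjusted p = 0.00299). The CV of Calm2 CPM was nevertheless 0.226, below the median of 0.365 for genes of nearest mean count. All 13 genes called in the default fit had mean counts of at least 88560.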

How the data were processed

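Smart-seq RNA was measured in 12 libraries of 1 pool of 13 cells. Per the labels, build mm10 was used, and the text deposited with each sample names GENCODE M4. The aligner, the quantifier and the strand were not given in the sources used here. Per the file headers, the authors deposited expected counts, TPM computed over all features including spike-ins, posterior mean TPM, and interval bounds of TPM (the score columns). The spike-ins held 4.78 to 14.6% of counts and features with numeric names at most 0.000336%. Both were left out of gene results, and TPM was not rescaled. Symbols and sequences came from GENCODE M21 on mm10, matched without version, for 42462 of 43346 identifiers. The 7 genes in the tables that overlap a member had a mean count of at most 0.25. PCR reads without molecular identifiers are not independent molecules.

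Pairs were tested on log2(TPM + 1) by exact sign-flip permutation over 4096 patterns. Dispersion was tested in edgeR 4.0.16 (R 4.3.3) on expected counts rounded to whole numbers, with a mean of at least 5 and TMM factors. Both of 2 quasi-likelihood fits were run on these data, with trended negative binomial dispersion (2 genes called) and edgeR's default (13 called). The first was made the main one afterwards, on simulated counts drawn from its own model, where it recovered more changed genes with fewer false calls. DESeq2 1.42.0 gave alternative size factors. Correlations used 100000 resamples, libraries blocked by number as 1 to 5, 6 to 10 or 11 to 13, and Python 3.11.15 with scipy 1.17.1.

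The members, lists, pairs and tests were chosen with earlier results of these data known. Named were all members, the other pore and FGF genes, the 4 highest and the lowest of the partners given, those with a dispersion call, the 3 genes most like each of the 3 highest members, and the 2 highest and the uncounted markers. Malat1, Gm37376 and Cbln1 were named after their values were seen. Some genes of the lists, and the pairs that hold them, are not reported here. Class sums that include Scn9a, Fgf11 and Fgf13 were also chosen after values were seen.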

Additional observations from a re-analysis of the deposited data

How the results depend on the processing

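No comparison between groups, paired or not, was possible because the libraries form 1 group. The gene pairs were compared within each library. No marker relation passed on CPM either, but some weak ones changed sign there or without the 2 farthest libraries. On CPM, r of Scn1a went from -0.053 to 0.23 with the Purkinje sum and from 0.037 to -0.433 with the Bergmann sum. The values printed next were the exceptions among the alternatives for pairs, dispersion and detection. On CPM, Scn1a over Scn8a turned to -0.40. Scn1a over Scn8a turned to -0.33 on transcripts of at least 5000 bases, and Fgf14 over Fgf13 missed at 1.09 on posterior mean TPM. Both of these alternatives were chosen after seeing the data, as was edgeR's default fit, which called 13 genes against 2. The cause of these changes was not tested. Leaving out 1 library each gave 0.43 to 0.92 for Scn1a over Scn8a, which passed only without library 11, and 1 to 2 dispersion calls, with 1 without library 1. Pseudocounts of 0.1 and 10, counts under 50 set to 0, rescaled TPM and protein-coding transcripts only changed no call among the 12 pairs given, and the 9 genes had 0 dispersion calls in each fit run. The pseudocounts moved the sizes against Scn3a, Scn3b and Fgf13, and of Scn8a over Scn2a, by over 1.5 times. They did so too for the pairs of Fgf14 with Fgf12 and Fgf11, which passed at neither. With pseudocounts of 10 and 0.1, Fgf14 over Fgf12 was -0.50 and -1.56, and Fgf14 over Fgf11 was -0.35 and -1.77. CPM gave 8.36 for Scn8a and 6.35 for Scn2a over Scn3a and 5.99 for Scn4b over Scn3b. Scn3a and Scn3b rest on 67 and 148 counts over all libraries.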
